A study of Homo sapiens with 15 samples.

Results

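The genes described here are 34 genes of sterol and fatty acid synthesis, chosen by name from a table of 23368 genes. They comprise 8 genes of the mevalonate and isoprenoid steps, 11 genes of the steps from farnesyl units to cholesterol, the sterol carrier gene STARD4, 5 genes of the SREBP control system and 9 genes of fatty acid and lipid synthesis. All 34 were found, 33 under the listed symbol and SC4MOL under its newer symbol MSMO1, and all 34 passed the filter on low values. RNA was sequenced from U2OS, a human osteosarcoma cell line, in 6 groups of cells given Nutlin or its solvent DMSO. Nutlin blocks the binding of MDM2 to p53 and so stabilises p53, which is wild type in U2OS. Asynchronous cells grew without a block (DMSO, 3 libraries; Nutlin, 3 libraries). Non-released cells were held in a double block with 2 mM thymidine, of 16 h, 8 h without thymidine and 16 h again (DMSO, 2 libraries; Nutlin, 2 libraries). S-phase cells went through the same block and were harvested 4 h after its removal (DMSO, 3 libraries; Nutlin, 2 libraries). In both blocked states cells met Nutlin for the last 4 h of the second block before release or its continuation, and S-phase cells kept it afterwards. Its dose of 10 is read as micromolar, because the unit prefix is lost in the labels, and for asynchronous cells the sources used here give no length of exposure. By the labels, all groups are 1 cell line without genetic change. The markers of 1 library, DMSO asynchronous replicate 3, differ from those of the others, as described below. Nothing in the labels tells whether replicates came from separate cultures, and p-values measure the spread between these libraries, which may be technical.

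Cells build cholesterol from acetyl-CoA through mevalonate, farnesyl diphosphate, squalene and lanosterol, and they build fatty acids from the same acetyl-CoA by way of malonyl-CoA. Transcription of both arms is driven by the SREBP factors, encoded by SREBF1 and SREBF2. SCAP carries the SREBP precursors from the endoplasmic reticulum to the Golgi for cleavage when sterols are low, and the INSIG proteins hold SCAP back when sterols are high. The genes therefore often move together with the sterol supply of the cell.

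SREBP factors bind the sterol regulatory element, usually beside sites for NF-Y and Sp1. The 250 bases before the start of 30 members were read from RefSeq promoters on GRCh38.p14, a newer build than the hg19 of the deposited table. SQLE, FDFT1, ACAT2 and FASN had no entry. The promoters are printed to show what these motifs look like in the gene for a SREBP and in 2 members that differed between states, STARD4 and DHCR7, which were chosen after their values were seen. Capitals mark the core TCACNCCAC in SREBF2, and CCAAT and GGGCGG, or the reverse complement of either, in STARD4 and DHCR7. SREBF2 lies at chr22:41832855-41833104 on the plus strand, STARD4 at chr5:111512536-111512785 and DHCR7 at chr11:71448394-71448643, both on the minus strand.
SREBF2: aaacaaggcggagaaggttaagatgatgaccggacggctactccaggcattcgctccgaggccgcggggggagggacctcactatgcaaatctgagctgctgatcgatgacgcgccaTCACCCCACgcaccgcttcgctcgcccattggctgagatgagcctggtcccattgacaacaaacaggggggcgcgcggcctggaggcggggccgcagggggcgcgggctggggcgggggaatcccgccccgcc
STARD4: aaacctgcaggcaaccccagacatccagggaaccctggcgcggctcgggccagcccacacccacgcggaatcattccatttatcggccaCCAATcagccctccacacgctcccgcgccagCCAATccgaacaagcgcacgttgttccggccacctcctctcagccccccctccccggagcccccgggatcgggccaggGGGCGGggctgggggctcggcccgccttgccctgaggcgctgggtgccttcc
DHCR7: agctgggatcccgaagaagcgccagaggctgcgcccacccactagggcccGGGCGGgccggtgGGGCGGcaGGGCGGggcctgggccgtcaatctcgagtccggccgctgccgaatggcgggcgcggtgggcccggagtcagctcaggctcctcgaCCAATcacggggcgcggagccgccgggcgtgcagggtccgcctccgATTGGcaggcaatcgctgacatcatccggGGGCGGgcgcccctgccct
SREBF2 held the only match to TCACNCCAC among the 30 promoters, TCACCCCAC, which starts 133 bases before the gene's start. On both strands, this core occurred in 0.875% of all 27305 promoters of the same length and in 0.884% of the 15843 of protein-coding genes. CCAAT, the NF-Y box, was present in 18 of 30 members (60%), against 33.0% of all promoters and 34.5% of those of protein-coding genes. GGGCGG, the Sp1 box, was present in 27 of 30 (90%), against 42.3% and 56.0%. The p53 element, searched by name as 1 decamer, was present in 2 of 30 (6.67%), against 5.53% and 5.1%. STARD4 had 2 CCAAT and 1 GGGCGG matches and DHCR7 had 2 and 4. These are matches of letters, and no binding was measured.

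Reads recovered from the table came to 6.05 to 23.38 M per library. In 14 libraries 10 epithelial markers summed to 248 to 544 normalised reads, and 10 mesenchymal markers to 63800 to 88600. VIM, FN1 and SPARC had the most reads of these mesenchymal markers. TWIST1 had 0 in every library and COL1A2 only 0.7 to 8.7. The 10 epithelial markers summed to 15700 in the library labelled DMSO asynchronous replicate 3, and 9 of them, all but KRT7, were highest there. All 9 luminal breast markers were highest in that library too. ESR1 had 1434.1 normalised reads there and 2.1 to 22.6 in the other libraries, TFF1 1226 and 0 to 5.3, and PGR only 7.1. Summed, the 9 came to 37600 there, mostly from KRT8, KRT18 and XBP1, which had many reads in every library. The sum was 14700 to 20200 in the 13 libraries other than that library and DMSO S-phase replicate 2. DMSO S-phase replicate 2 was the shallowest library, and its 10 mesenchymal markers summed to 88600, against 63800 to 78100 in the same 13. The part of these differences in the results was not tested, so results are given over all 15 libraries and over the 13 without this pair. CCNE2, a cyclin of the G1 to S transition, was 1.4 ± 0.13 (SE) higher on the log2 scale in DMSO non-released than in DMSO asynchronous cells (adjusted p = 1.5e-05), and PLK1, a mitotic kinase, was lower by the measured difference of -1.06 ± 0.14 (adjusted p = 0.000113). Fewer cells of a kind and less RNA per cell cannot be told apart in these bulk libraries.

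Several members stood out in those libraries. TM7SF2, a sterol reductase, was 9.03 on the log2 scale in DMSO asynchronous replicate 3 and 6.70 to 7.39 in the others. SCD, the stearoyl-CoA desaturase, was 13.54 there, its highest value, and FASN, the fatty acid synthase, was 12.99. In DMSO S-phase replicate 2, FASN reached 13.50 and was 11.97 and 11.63 in the other DMSO S-phase libraries. SREBF2 was 11.89 in that library and 11.15 and 11.06 beside it, and ACACA, the acetyl-CoA carboxylase that makes malonyl-CoA, was also highest there, 0.64 above the lowest of its group. FASN had the widest spread of any member within the DMSO S-phase group, 1.88, and TM7SF2 within the DMSO asynchronous group, 2.33.

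**Figure D1:**
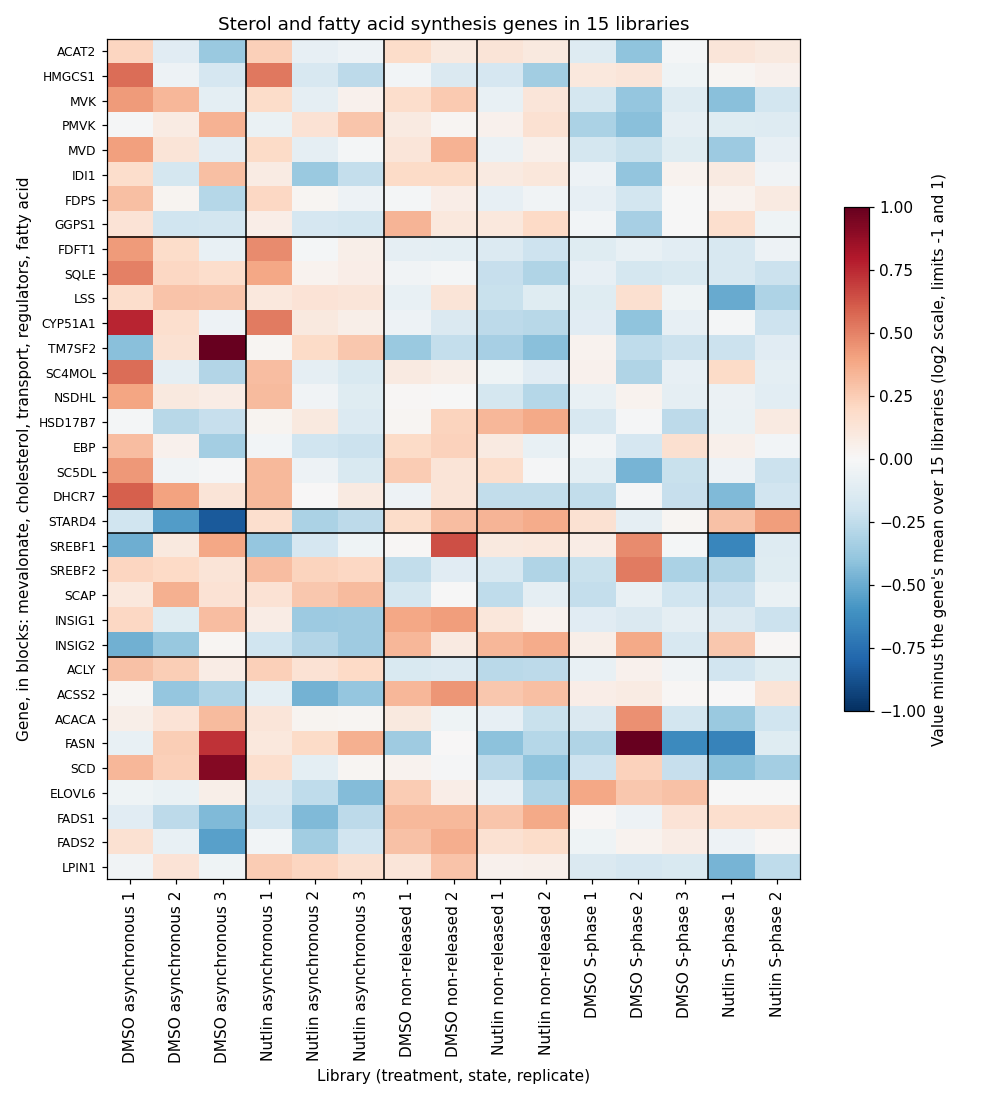
Each cell is a gene's deposited value in 1 library minus its mean over all 15 (log2 scale, colour limits -1 and 1), with genes on the vertical axis in blocks by role and libraries on the horizontal axis in 6 groups. Replicate 1 of both asynchronous groups is red across many sterol genes, and DMSO asynchronous replicate 3 and DMSO S-phase replicate 2 stand out in TM7SF2, SCD, FASN, SREBF2 and ACACA.

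Per kilobase of exon, sterol genes were among the most abundant members. Mean levels over the 13 libraries, in reads per kilobase per M reads, were 115 for FDPS (range 105 to 127), which makes farnesyl diphosphate, 112 for ACLY (95.4 to 129), which makes cytosolic acetyl-CoA from citrate, and 105 for SQLE (87.3 to 136), the squalene epoxidase. CYP51A1, the lanosterol demethylase, followed at 94.7 (76.0 to 141) and HMGCS1, the HMG-CoA synthase, at 92.2 (73.7 to 126). The ranges of these 5 genes overlapped, and their order within each library was not compared, so the order of the means is given without a test. The regulators were lower: SREBF2 had 29.4, SCAP 26.4, INSIG1 16.9, SREBF1 10.3 and INSIG2 5.51. ELOVL6, a fatty acid elongase, and TM7SF2 were lowest, at 4.03 and 2.80. FDPS and HSD17B7 have near-identical pseudogene copies and STARD4 has an antisense gene. The sources used here do not give how reads of such copies were counted or whether strand was used, so these 3 levels are uncertain.

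Replicate 1 of the asynchronous cells was high for the sterol arm under both treatments. It was the highest of the 3 libraries for 15 of the 19 mevalonate and cholesterol genes with DMSO and for 15 of 19 with Nutlin. The median excess of replicate 1 over replicate 2 in these 19 genes was 0.28 with DMSO and 0.31 with Nutlin on the log2 scale. HMGCS1 was 12.90, 12.29 and 12.17 in DMSO replicates 1 to 3, and 12.87, 12.18 and 12.08 with Nutlin. CYP51A1 was 13.03, 12.44 and 12.22 with DMSO, and 12.79, 12.37 and 12.33 with Nutlin. In both genes the distance between replicates 1 and 2 exceeded the mean difference between treatments. In the 9 fatty acid genes replicate 1 was highest for 4 with DMSO and for 8 with Nutlin, with a median excess of 0.06 and 0.11. Over all 34 members it was highest for 21 with DMSO and for 27 with Nutlin. The pattern was found in these same values, and the share over all genes tested was not computed. Whether it is particular to sterol genes was therefore not tested.

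The comparison of Nutlin with DMSO asks how stabilised p53 bears on these genes in each state. No member was called in any of the 3 states by limma over 15 libraries at adjusted p under 0.05, against 2.45% of all genes tested in asynchronous, 0.916% in non-released and 2.00% in S-phase cells. Without the pair of libraries that stand apart the count was also 0 of 34 in each state, against 6.26%, 3.23% and 3.97% of all genes, and voom on recovered reads also called 0 in each. At an unadjusted p under 0.05 there were 5, 1 and 4 of 34 members, against 12.1%, 6.67% and 12.6% of all genes. Calls appeared in other fits. A fit added after the data were seen, with the replicate number as a block and without the pair of libraries, called 2 members in each state, all lower with Nutlin: EBP and SCD in asynchronous cells, SCD and ELOVL6 in non-released cells, and LSS and ELOVL6 in S-phase cells, against 10.7%, 4.77% and 4.38% of all genes. The absence of calls therefore holds for the fits named and not for every fit that was run.

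In asynchronous cells 27 of 34 members lay below 0 and the median difference was -0.08, against -0.02 over all genes (54.8% below 0). For 3 of 34 (8.82%) every Nutlin library was below every DMSO library, against 9.64% of all genes tested. SCD was 12.95, 12.86 and 13.54 with DMSO and 12.79, 12.52 and 12.64 with Nutlin. The groups did not overlap, and the difference was -0.46 ± 0.16 (SE, adjusted p = 0.215). Without the pair of libraries it was -0.25 (adjusted p = 0.0833), and with the block as well -0.25 ± 0.07 (adjusted p = 0.0395). EBP, a sterol isomerase, differed by -0.15 over 15 libraries (adjusted p = 0.78) and by -0.34 ± 0.09 in the added fit (adjusted p = 0.022). STARD4, which carries sterol between membranes, was 10.49, 10.13 and 9.85 with DMSO and 10.86, 10.37 and 10.43 with Nutlin. The groups overlapped, and the difference was 0.40 ± 0.15 (adjusted p = 0.264), or 0.25 without the pair of libraries (adjusted p = 0.33). Among the regulators, INSIG1 had -0.35 ± 0.12 (adjusted p = 0.235), SREBF1 -0.20, SREBF2 0.06 and SCAP 0.05, while INSIG2 was level, with an SE of 0.15. Without the pair of libraries mean SREBF1 was 9.47 with either treatment, so its difference rested on DMSO asynchronous replicate 3. Mean INSIG1 was then 9.82 with DMSO and 9.57 with Nutlin. IDI1, the isopentenyl diphosphate isomerase, had -0.27 ± 0.14 (adjusted p = 0.507). TM7SF2 had -0.38 ± 0.39 with all libraries and 0.30 without the pair, so its direction rested on DMSO asynchronous replicate 3.

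In non-released cells 29 of 34 members lay below 0, with a median of -0.15 against -0.02 over all genes (55.8% below 0). For 21 of 34 (61.8%) both Nutlin libraries were below both DMSO libraries, against 25.7% of all genes tested, and none was called. The members share the same 4 libraries and vary together, so these 21 are not independent observations. ELOVL6 was 9.18 and 8.99 with DMSO and 8.84 and 8.62 with Nutlin. The groups did not overlap, and the difference was -0.35 ± 0.12 (adjusted p = 0.329, and 0.0426 in the added fit). INSIG1 was 10.17 and 10.20 with DMSO and 9.90 and 9.82 with Nutlin, a difference of -0.32 ± 0.15 (adjusted p = 0.781). When only these 4 libraries were fitted its adjusted p was 0.0484 and that of SCD, at -0.34, was 0.037. DHCR7, which makes cholesterol from its last precursor, had -0.28 ± 0.15 and MVD, the mevalonate diphosphate decarboxylase, -0.24 ± 0.15. SREBF1 had -0.23, SREBF2 -0.05, SCAP -0.08, INSIG2 0.14 and STARD4 0.11, each with an adjusted p of 0.999.

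In S-phase cells 19 of 34 members lay below 0 and the median was -0.03, against -0.01 over all genes. LSS, which closes squalene epoxide to lanosterol, was 10.82, 11.10 and 10.90 with DMSO and 10.44 and 10.63 with Nutlin. Both Nutlin libraries were lowest, and the difference of -0.41 ± 0.10 was just outside the threshold (adjusted p = 0.0531). It was inside in 5 alternatives, among them the replicate block (adjusted p = 0.0191), and its adjusted p ranged from 0.0128 to 0.484 over all of them. SREBF1 was 9.74, 10.14 and 9.65 with DMSO and 9.01 and 9.54 with Nutlin, a difference of -0.57 ± 0.25 (adjusted p = 0.356). Without the pair of libraries its means were 9.69 with DMSO and 9.27 with Nutlin. FASN had -0.49 ± 0.40 with all libraries and 0.07 without the pair, so its direction rested on DMSO S-phase replicate 2, and SREBF2 went from -0.20 to 0.06 in the same way. ACAT2, an acetoacetyl-CoA thiolase, had 0.29 ± 0.15 and STARD4 0.33 ± 0.17. SCAP, INSIG1 and INSIG2 had 0.02, -0.06 and 0.05.

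**Figure D2:**
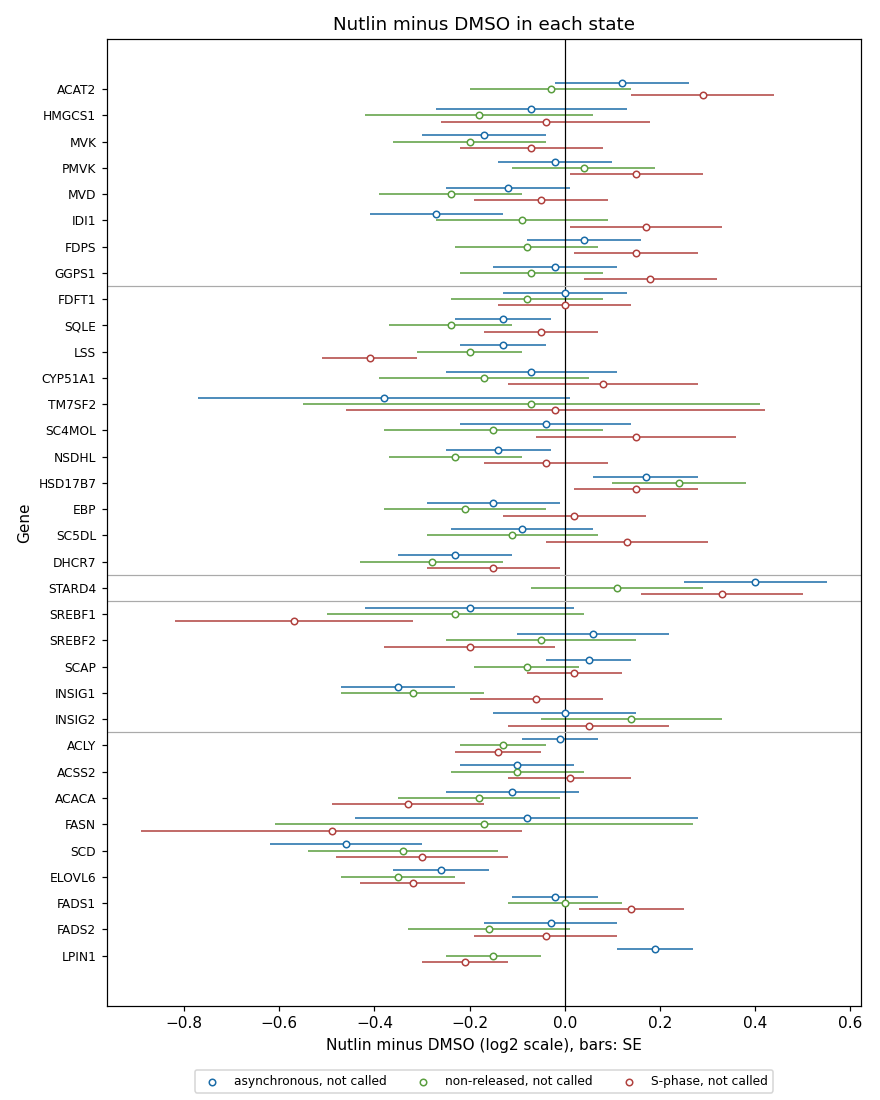
Points are the Nutlin minus DMSO difference of each member on the log2 scale (horizontal axis), coloured by state, and bars are the SE from limma over 15 libraries. All points are open, since no member was called in this fit, and the non-released points lie mostly left of 0 (29 of 34).

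None of the 34 members was called when the Nutlin response was compared between states with limma, and no gene of the table was called over 15 libraries (background 0%). At an unadjusted p under 0.05 there was 1 member for non-released minus asynchronous cells, against 1.08% of all genes. There was 1 for S-phase minus asynchronous (5.5% of all genes) and 0 for S-phase minus non-released (2.25%). Voom called 0 members in each. Over 13 libraries 0.0211% of genes were called in the first of these, none of them a member. The Nutlin responses are therefore not shown to differ between states.

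Differences between states were larger. With DMSO, 8 of 34 members (23.5%) were called between non-released and asynchronous cells, 5 higher and 3 lower, against 33.9% of all genes tested. Over 13 libraries 14 members were called, the 8 among them, against 48.0% of all genes. The members' share was thus below that of all genes in both. With Nutlin, 10 were called, 5 higher and 5 lower, against 34.5%, and 18 over 13 libraries against 50.2%. The calls with DMSO and with Nutlin come from separate libraries but share 1 spread per gene. Blocked cells differed from asynchronous ones in thymidine, culture time and cell cycle position together, which cannot be told apart.

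STARD4 rose in the blocked cells in both treatments. With DMSO it was 10.49, 10.13 and 9.85 in asynchronous and 10.87 and 11.00 in non-released cells. The groups did not overlap, and the rise was 0.78 ± 0.17 (adjusted p = 0.00318), or 0.63 without the pair of libraries. Per kilobase its level went from 11.9 ± 2.16 (SD, n = 3) to 22.9 ± 1.47 (n = 2) reads per M reads. With Nutlin it was 10.86, 10.37 and 10.43 against 11.03 and 11.06, a rise of 0.49 ± 0.17 (adjusted p = 0.0364), which 7 alternatives with one library or setting changed placed outside the threshold.

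The desaturases of polyunsaturated fatty acids rose too. FADS1, the delta-5 desaturase, was 12.21, 12.06 and 11.88 in DMSO asynchronous cells and 12.65 in both non-released libraries, a rise of 0.60 ± 0.11 (adjusted p = 0.000828). With Nutlin it rose by 0.63 ± 0.11 (adjusted p = 0.000624). In both treatments every non-released library lay above every asynchronous one, and the call held in all alternatives, with adjusted p up to 0.0152 and 0.0134. FADS2, the delta-6 desaturase, rose by 0.49 ± 0.15 with DMSO (adjusted p = 0.0259), and by 0.29 without the pair of libraries. This call was lost in 4 of 23 alternatives, among them leaving out either DMSO non-released library. With Nutlin FADS2 was not called over 15 libraries, with means of 12.07 in asynchronous and 12.43 in non-released cells.

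ACSS2, which makes acetyl-CoA from acetate, was 8.92, 8.51 and 8.60 in DMSO asynchronous and 9.23 and 9.34 in non-released cells. It rose by 0.61 ± 0.13 (adjusted p = 0.003), and by 0.60 ± 0.13 with Nutlin (adjusted p = 0.00329), in all alternatives run. ACLY, the other source of cytosolic acetyl-CoA, went the other way. Its values were 13.25, 13.20 and 13.03 against 12.80 and 12.82 with DMSO, a difference of -0.35 ± 0.09 (adjusted p = 0.00682), and -0.46 ± 0.09 with Nutlin (adjusted p = 0.00115). The groups did not overlap in either gene in either treatment.

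Of the regulators, INSIG2 rose and SCAP fell in both treatments. INSIG2 was 7.66, 7.76 and 8.16 with DMSO against 8.47 and 8.23, a rise of 0.49 ± 0.17 (adjusted p = 0.0393), and 0.63 ± 0.17 with Nutlin (adjusted p = 0.0111). SCAP was 11.05, 11.30 and 11.09 against 10.77 and 10.94, a difference of -0.29 ± 0.10 (adjusted p = 0.0433), and -0.42 ± 0.10 with Nutlin (adjusted p = 0.00757). Leaving out DMSO non-released replicate 1 moved the DMSO values to 0.37 (adjusted p = 0.261) and -0.21 (adjusted p = 0.299). Of 23 alternatives, 12 lost the DMSO call of INSIG2 and 10 that of SCAP. SREBF2 was not called over 15 libraries. Over the 13, it was lower in both, by a difference of -0.39 with DMSO (adjusted p = 0.00166) and -0.48 with Nutlin (adjusted p = 0.000164).

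**Figure D3:**
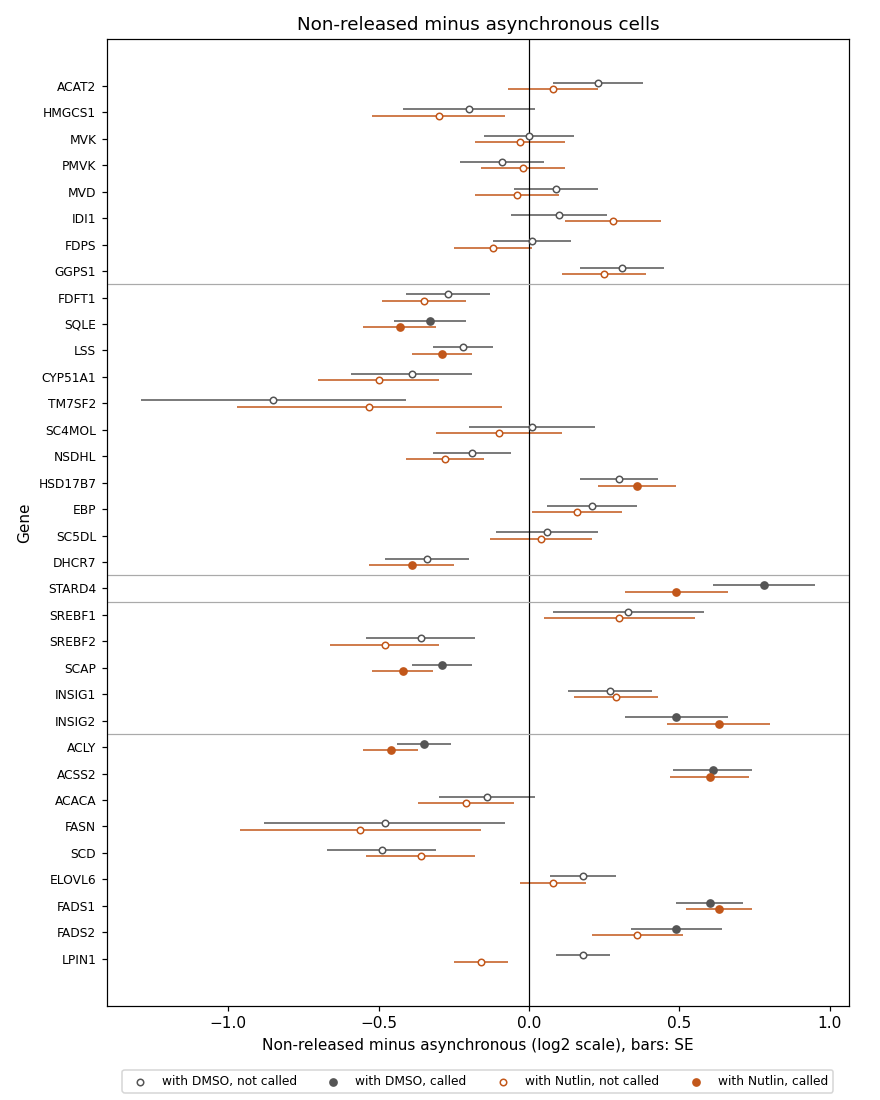
Points are the non-released minus asynchronous difference of each member on the log2 scale with DMSO and with Nutlin, filled where called, and bars are the SE from limma over 15 libraries. FADS1, ACSS2, STARD4 and INSIG2 are filled right of 0 and ACLY, SQLE and SCAP left of 0 in both treatments.

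In the cholesterol steps SQLE fell in both treatments. It was 12.80, 12.50 and 12.47 in DMSO asynchronous cells and 12.26 and 12.27 in non-released cells, a difference of -0.33 ± 0.12 (adjusted p = 0.0453), and -0.43 ± 0.12 with Nutlin (adjusted p = 0.0116). The DMSO value was -0.22 (adjusted p = 0.148) without DMSO asynchronous replicate 1, the library that was high across the sterol arm, and 14 of 23 alternatives lost the DMSO call. With Nutlin, LSS fell by the difference -0.29 ± 0.10 (adjusted p = 0.0342) and DHCR7 by -0.39 ± 0.14 (adjusted p = 0.0448). HSD17B7, a sterol ketoreductase, rose by 0.36 ± 0.13 (adjusted p = 0.0384). These 3 calls were fragile. That of LSS was lost without any 1 of the 5 libraries compared, that of DHCR7 in 9 of 23 alternatives and that of HSD17B7 in 8 of 22, and both of the latter without either Nutlin non-released library. None of the 8 mevalonate genes was called between non-released and asynchronous cells in either treatment, over 15 or 13 libraries.

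**Figure D4:**
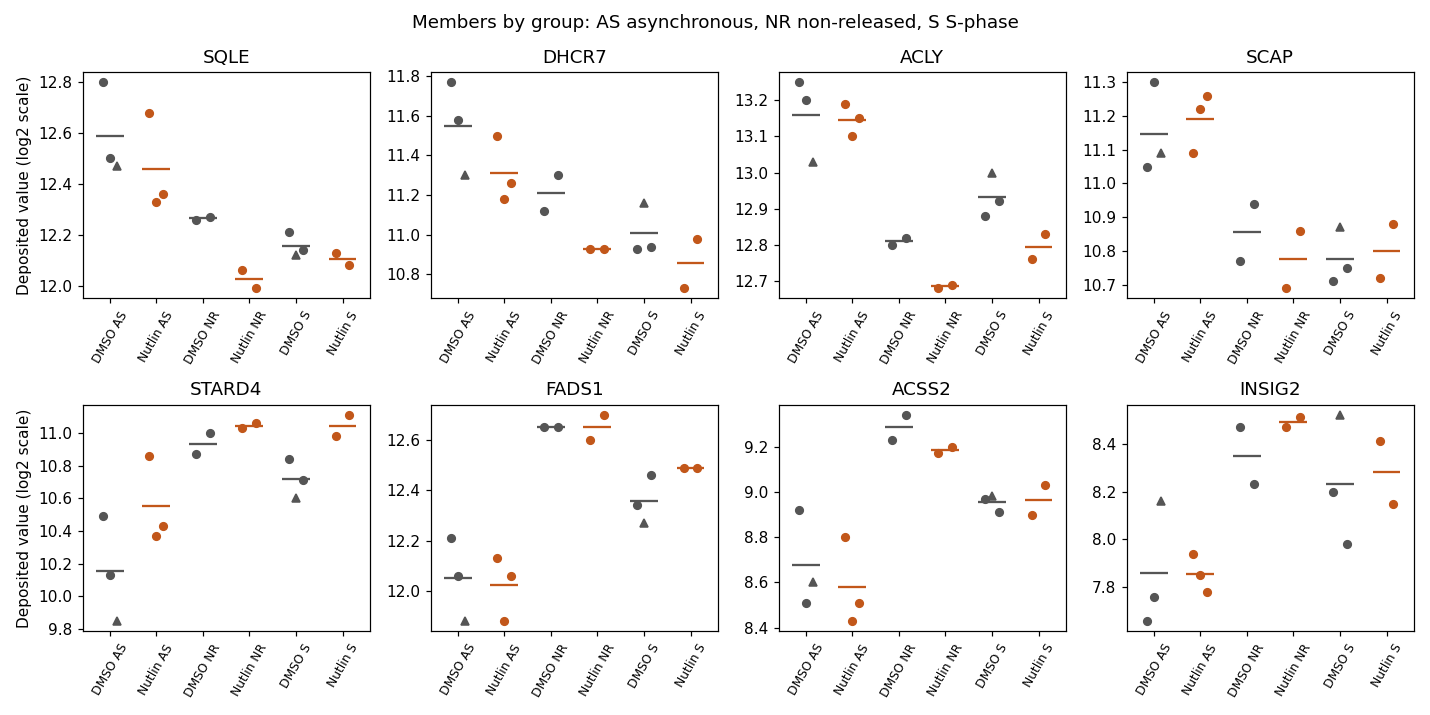
Deposited values (vertical axes, log2 scale, each with its own range) of 8 members called between non-released and asynchronous cells are shown by group, with 1 point per library and a line at the group mean. Triangles mark DMSO asynchronous replicate 3 and DMSO S-phase replicate 2. SQLE, DHCR7, ACLY and SCAP are highest on average in asynchronous cells, and STARD4, FADS1, ACSS2 and INSIG2 lowest.

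S-phase cells also differed from asynchronous ones. With DMSO 11 of 34 members (32.4%) were called, 3 higher and 8 lower, against 27.7% of all genes, and 17 over 13 libraries against 31.9%. All 5 calls in the 19 mevalonate and cholesterol genes were lower. DHCR7 was 11.77, 11.58 and 11.30 in asynchronous and 10.93, 11.16 and 10.94 in S-phase cells, without overlap, a difference of -0.54 ± 0.12 (adjusted p = 0.0067). SQLE had -0.43 ± 0.10 (adjusted p = 0.00842). MVK, the mevalonate kinase, was 9.62, 9.53 and 9.10 against 9.02, 8.81 and 9.07 and had -0.45 ± 0.13 (adjusted p = 0.0243). Its call was lost in 5 of 23 alternatives, among them leaving out DMSO asynchronous replicate 1, the library that was high across the sterol arm. PMVK, the next kinase, had -0.42 ± 0.12 (adjusted p = 0.0224), and -0.24 without the pair of libraries (adjusted p = 0.146). The fifth, LSS, was called with the largest p of the 11.

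In the other groups of genes, SCAP had -0.37 ± 0.09 (adjusted p = 0.0108) and ACLY -0.23 ± 0.08 (adjusted p = 0.0423), a call lost in 12 of 23 alternatives. SCD had -0.57 ± 0.16 (adjusted p = 0.02), and -0.35 without DMSO asynchronous replicate 3 (adjusted p = 0.051). STARD4 was 10.84, 10.60 and 10.71 in DMSO S-phase cells, above all 3 asynchronous libraries, and rose by 0.56 ± 0.15 (adjusted p = 0.0144). ELOVL6 was 8.88, 8.86 and 8.98 in asynchronous and 9.31, 9.19 and 9.22 in S-phase cells and rose by 0.33 ± 0.10 (adjusted p = 0.0218), and FADS1 rose by 0.31 ± 0.09 (adjusted p = 0.0264). The ELOVL6 call was lost in 4 of 23 alternatives. That of FADS1 was lost in 6, among them the replicate block over 13 libraries. None of the 11 was called when the 6 libraries of these 2 groups were fitted alone.

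With Nutlin, 9 of 34 members were called between S-phase and asynchronous cells, 3 higher and 6 lower, against 24.0% of all genes, and 16 over 13 libraries against 41.2%. LPIN1, a phosphatidate phosphatase of lipid synthesis, was 11.39, 11.35 and 11.30 in asynchronous and 10.67 and 10.88 in S-phase cells. The groups were well apart, and the difference was -0.58 ± 0.09 (adjusted p = 0.000645), a call in all alternatives. LSS was 11.05, 11.08 and 11.06 against 10.44 and 10.63, a difference of -0.53 ± 0.10 (adjusted p = 0.00217), also a call in all alternatives. DHCR7 had -0.46 ± 0.14, SCAP -0.39 ± 0.10, SQLE -0.35 ± 0.12 and ACLY -0.35 ± 0.09. FADS1 rose by 0.47 ± 0.11 (adjusted p = 0.00617), STARD4 by 0.49 ± 0.17 (adjusted p = 0.0474) and ACSS2 by 0.39 ± 0.13 (adjusted p = 0.0465). The call of STARD4 was lost in 15 of 23 alternatives, that of ACSS2 in 14 and that of SQLE in 11. For STARD4 and ACSS2 these included no filter, voom, the replicate block and median centring.

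Few members differed between S-phase and non-released cells. With DMSO 2 of 34 were called, both lower in S-phase, against 6.99% of all genes, and 4 over 13 libraries against 14.3%. INSIG1, itself a target of SREBP, was 10.17 and 10.20 in non-released and 9.67, 9.64 and 9.69 in S-phase cells, a difference of -0.52 ± 0.14 (adjusted p = 0.0389). The call was lost in 11 of 23 alternatives, among them leaving out any 1 of the 5 libraries compared, at -0.53 to -0.50. LPIN1 was 11.26 and 11.42 against 10.99, 10.97 and 10.98, a difference of -0.36 ± 0.09 (adjusted p = 0.0261), a call lost in 4 of 23 alternatives. With Nutlin LPIN1 was the 1 member called, at -0.41 ± 0.10 (adjusted p = 0.0402), against 2.43% of all genes. It was 11.18 and 11.19 in non-released and 10.67 and 10.88 in S-phase cells. The call was lost in 11 of 23 alternatives, among them leaving out any 1 of the 4 libraries compared, at -0.52 to -0.31.

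Comparisons that share a group share its libraries, so the calls against asynchronous cells are not independent. In all, 17 of 34 members had a call in some comparison over 15 libraries and 23 over 13. SREBF2 was lower than in asynchronous cells over the 13 libraries in all 4 comparisons, by a difference of -0.48 in S-phase cells with DMSO (adjusted p = 0.000869) and -0.45 with Nutlin (adjusted p = 0.000371). FASN was lower in S-phase cells by a difference of -0.55 with DMSO (adjusted p = 0.0242) and -0.61 with Nutlin (adjusted p = 0.00674) over the 13, and was not called over 15.

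Of 51 other genes of lipid metabolism, 50 were tested. None was called for Nutlin against DMSO over 15 libraries in any state. Over 13 libraries ABCA1, which exports cholesterol, was higher with Nutlin by 0.52 ± 0.12 in asynchronous cells (adjusted p = 0.015) and by 0.50 ± 0.13 in non-released cells (adjusted p = 0.0478). Over 15 its values were -0.08 and 0.50, so the asynchronous direction depended on the pair of libraries. With DMSO 19 of 50 (38.0%) were called between non-released and asynchronous cells, 7 higher and 12 lower, a share close to the 33.9% of all genes. SCD5, a second stearoyl-CoA desaturase, rose by 1.13 ± 0.09 (adjusted p = 6.71e-06). SCD was not called over 15 libraries and was lower over the 13, by a difference of -0.27 (adjusted p = 0.0188). ACACB, the carboxylase isoform at mitochondria, rose by 0.79 ± 0.14 (adjusted p = 0.000722). With Nutlin 19 of 50 (38.0%) were also called, 7 higher and 12 lower, against 34.5% of all genes, and SCD5 rose by 1.1 ± 0.09.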

How the data were processed

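RNA from 15 libraries of U2OS cells was sequenced as single reads of 50 nt from 1000 ng of RNA, per the labels' protocols. The authors deposited variance-stabilised values on a log2 scale for 23368 genes. Per the submitters' processing notes, the build was hg19 and the tools were DESeq2 1.10.1, HTSeq, TopHat 0.9 and CASAVA 1.8.2, with no roles given. The scale shrinks differences of genes with few reads. Groups came from the labels. Reads were recovered by inverting the transformation from the lowest value, 4.859. Between 99.04% (DMSO S-phase replicate 3) and 99.98% of values lay within 0.05 of a whole read, and the step used for that library was chosen after its values were seen. The limit of 3 reads for a gene with 0 is 0.128 to 0.496 reads per M reads, covering counting error only.

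Differences were tested with limma 3.58.1 (R 4.3.3) with eBayes and a trend, 1 mean per group over 15 libraries, two-sided, adjusted by Benjamini and Hochberg over 14298 genes (at least 2 libraries 1 unit above the lowest value). Adjusted p under 0.05 was a call, in 12 comparisons. The procedure was tested on simulated data. Members and lists were chosen with earlier results of these data known. Named were the 5 regulators and the largest difference per role in each Nutlin comparison, and members called, up to 10 per comparison by smallest p. Others were named after their values were seen. Alternatives were no filter, a stricter filter (3 libraries, 3 units), voom, the compared groups alone, 13 libraries, a replicate block, median centring and each library left out. The block over 13 libraries was added after the data were seen.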

Additional observations from a re-analysis of the deposited data

How the results depend on the processing

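Counts of members called depended on the fit. For Nutlin against DMSO, the 0 calls became 2 in non-released cells with the compared groups alone. They became 1 in S-phase cells (LSS) with the stricter filter, median centring or the replicate block, which called 2.27% of all genes there. The replicate block over 13 libraries, an alternative chosen after seeing the data, gave 2 in each state, against 10.7%, 4.77% and 4.38% of all genes. Comparisons of states follow in the order DMSO non-released minus asynchronous, S-phase minus asynchronous and S-phase minus non-released, then the same with Nutlin. Their counts of 8, 11, 2, 10, 9 and 1 became 14, 17, 4, 18, 16 and 1 over 13 libraries. With the replicate block over 13 they became 16, 19, 6, 23, 18 and 3. The shares of all genes rose too. They were 33.9%, 27.7%, 6.99%, 34.5%, 24.0% and 2.43% over 15 libraries, and 48.0%, 31.9%, 14.3%, 50.2%, 41.2% and 10.8% over 13. With the block over 13 they were 53.4%, 34.8%, 16.1%, 53.4%, 45.0% and 17.2%. Compared groups alone gave 4, 0, 0, 21 and 16 for the first 5. No filter gave 4 for DMSO non-released minus asynchronous, 1 for DMSO S-phase minus non-released and 5 for Nutlin S-phase minus asynchronous. The replicate block over 15 libraries gave 4 for DMSO S-phase minus non-released, against 9.42% of all genes, and median centring 0 for the same with Nutlin. For the compared groups alone, the changed filters, median centring and 1 library left out, shares of all genes are not given here. Those counts of members therefore stand without a background.

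Leaving out 1 library gave 0 to 1 for Nutlin in S-phase cells, and 3 to 11, 4 to 12, 0 to 3, 3 to 15, 3 to 13 and 0 to 1 for the 6 comparisons of states. It gave 0 for Nutlin in asynchronous and non-released cells and for the differences between responses. The lowest counts came without DMSO non-released replicate 1 (3), DMSO S-phase replicate 1 (4), either DMSO non-released library or DMSO S-phase replicate 1 (0), Nutlin non-released replicate 1 (3) and Nutlin S-phase replicate 1 (3). For S-phase minus non-released with Nutlin, 10 of 15 libraries left out gave 0.

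Of 1539 values of 67 named results under the alternatives, 1321 kept direction and side of the threshold, 193 lost a call, 8 gained one and 17 reversed. Reversed values, all of Nutlin minus DMSO, were TM7SF2 in asynchronous cells (0.30 over 13 libraries or without DMSO asynchronous replicate 3, 0.31 with the block over 13). In non-released cells they were SREBF1 (0.08), SREBF2 (0.01 and 0.02) and SCAP (0.01, in 2 fits), each without 1 library of the comparison. In S-phase cells they were SREBF2 (0.06 over 13 libraries or without DMSO S-phase replicate 2, 0.02 with the block over 13), FASN (0.07 over 13 or without that library), SCAP (-0.01 and -0.06) and INSIG2 (-0.08), the last 2 without 1 library. With 1 library left out, TM7SF2 ranged from -0.87 to 0.30, in non-released cells SREBF1 from -0.55 to 0.08, SREBF2 from -0.13 to 0.02 and SCAP from -0.16 to 0.01, and in S-phase cells SREBF2 from -0.36 to 0.06, SCAP from -0.06 to 0.11, INSIG2 from -0.08 to 0.19 and FASN from -0.86 to 0.07. The cause was not tested.

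Each library's deviations from its group mean, over the genes tested, were correlated between DMSO and Nutlin libraries of a state. Same-numbered libraries had 0.313, 0.136 and 0.074 in asynchronous, 0.325 in non-released and 0.341 and 0.351 in S-phase cells. In groups of 2 libraries the deviations mirror each other, so both non-released pairs give the same value. The lowest, 0.074, was not over 0.1 and involves DMSO asynchronous replicate 3, the library with epithelial and luminal markers. Libraries with different numbers had -0.351 to 0.27. Because of that lowest value the numbers were not taken as pairs, and the block stands here as an alternative.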

Other observations

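Genes of fatty acid oxidation, 12 of which were tested, were called against asynchronous cells at shares near or below those of all genes in 3 of 4 comparisons, and the calls were upward. With DMSO 4 were called in non-released cells (33.3%, against 33.9% of all genes) and 2 in S-phase cells (16.7%, against 27.7%). With Nutlin 3 were called in non-released cells (25.0%, against 34.5%) and 4 in S-phase cells (33.3%, against 24.0%). PPARGC1A, a coactivator of mitochondrial genes, was higher in non-released cells by 0.81 ± 0.16 with DMSO (limma, adjusted p = 0.00176) and by 0.83 ± 0.16 with Nutlin (adjusted p = 0.00158). This gene had few reads, where the scale shrinks differences. Its mean normalised reads were 11.5 in asynchronous and 44.5 in non-released cells with DMSO, and 7.3 and 36.4 with Nutlin. CPT2, which acts in the entry of fatty acids into mitochondria, was higher by 0.59 ± 0.15 (adjusted p = 0.0105) and 0.72 ± 0.15 (adjusted p = 0.00322). After release PPARGC1A was lower in DMSO S-phase than in DMSO non-released cells, by a difference of -0.60 ± 0.16 (adjusted p = 0.0371).

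TRIB3, a stress-induced pseudokinase, was lower in non-released than in asynchronous cells by a difference of -0.76 ± 0.12 with DMSO (adjusted p = 0.000332) and -0.81 ± 0.12 with Nutlin (adjusted p = 0.0002). SCARB1, a lipoprotein receptor, had -0.35 ± 0.10 (adjusted p = 0.015) and -0.60 ± 0.10 (adjusted p = 0.000588). The comparisons within 1 treatment share the asynchronous libraries.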
